A study of Homo sapiens with 36 samples.

Results

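CTCF binding was described at 5 windows of the human genome that hold imprinted genes: H19, IGF2, KCNQ1 and CDKN1C on chromosome 11, DLK1 and MEG3 on chromosome 14, GNAS on chromosome 20, SNRPN on chromosome 15 and GRB10 on chromosome 7. The members were all CTCF peaks of 6 deposited lists that overlapped chr11:1950000-2950000, chr14:101100000-101500000, chr20:57350000-57500000, chr15:25000000-25350000 or chr7:50600000-50900000 in the hg19 build, a choice by position and not by strength. There were 174 such peaks of 179333 in all 6 lists, and they merged into 49 regions of 54382. The lists came from chromatin immunoprecipitation with an antibody to CTCF and sequencing (ChIP-seq) in HEK293T, an established human embryonic kidney cell line. Cells had been transfected with a control small interfering RNA (siNC) or with one against CHD3, CHD4, CHD5, MBD2 or MBD3, which are subunits of NuRD, a chromatin-remodelling and histone deacetylase complex. CHD3, CHD4 and CHD5 are its alternative ATP-dependent remodellers, and MBD2 and MBD3 are its alternative methyl-CpG-binding-domain subunits, of which MBD2 binds methylated DNA. Each condition had 3 immunoprecipitates and 3 inputs, 36 samples in all, and each deposited list pooled its 3 replicates, so no value below has a replicate error and no comparison between conditions was tested. How far each target was depleted was not measured in these files, and the time after transfection was not given in the sources used here.

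Imprinted genes are expressed from 1 parental allele, set by DNA methylation laid down in the germ line at control regions. CTCF, a zinc-finger protein that organises chromatin loops and insulators, binds the control region upstream of H19 on the unmethylated maternal allele and keeps IGF2, a growth factor gene, from enhancers shared with H19, a long noncoding RNA gene. CTCF peaks in these lists are not split by allele, so binding to the maternal and the paternal copy cannot be told apart.

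The sequence of hg19 was not used here, so the letters under the peaks are not shown. To show what a match of the CTCF core motif looks like in promoters of these genes, 3 stretches from RefSeq (GRCh38.p14 build, another build than that of the peaks) are given 5′ to 3′ on the gene's strand, with capitals marking a match of GGNGGCAG, a piece of the CTCF core motif, searched on both strands. They are GNAS chr20:58852851-58852898 (plus strand), SNRPN chr15:24856422-24856469 (plus strand) and GRB10 chr7:50793494-50793541 (minus strand).
GNAS: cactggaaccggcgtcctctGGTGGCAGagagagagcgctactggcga
SNRPN: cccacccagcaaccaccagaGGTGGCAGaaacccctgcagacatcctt
GRB10: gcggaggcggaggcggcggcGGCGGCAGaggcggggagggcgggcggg
The RefSeq table held promoters of 300 bases for 5 of the 9 genes (GNAS, GRB10, H19, MEG3 and SNRPN, 19 entries). Of these entries, 8 of 19 held GGNGGCAG and 2 of 19 held CCGCGNGGN, a form of the motif with CpG sites, all of them entries of GNAS, GRB10 or SNRPN. Of 35116 promoter entries of all genes, 16.7% held GGNGGCAG and 10.9% held CCGCGNGGN, and several entries belong to 1 gene, so they are not independent. A match is a description of letters, and whether any of these stretches lies under a peak was not analysed here.

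The 6 lists differed in depth, and that bears on every count below. Fragment coverage, read from the lists as the smallest recurring local background, was 2.96 in siNC, 0.445 in siCHD3, 1.06 in siCHD4, 1.95 in siCHD5, 0.374 in siMBD3 and 0.64 in siMBD2. The siNC list was thus 1.52 times (siCHD5) to 7.92 times (siMBD3) as deep as a knockdown list. Total peaks ran from 25358 in siCHD4 to 36270 in siNC.

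Peaks of the imprinted windows were of ordinary strength for CTCF in these cells. Fold enrichment, the authors' value at the summit over local background, had a median of 5.05 over the 35 siNC members against 5.22 over the other siNC peaks. Within their own lists, the members' median percentile of fold was 46.0 in siNC, 69.9 in siCHD3, 59.0 in siCHD4, 40.3 in siCHD5, 49.2 in siMBD3 and 43.7 in siMBD2. The members therefore ranked highest in siCHD3. Their number was 35 in siNC, 33 in siCHD3, 21 in siCHD4, 32 in siCHD5, 29 in siMBD3 and 24 in siMBD2. Members lay closer together than siNC peaks in general on chromosome 11, where neighbouring siNC summits were a median of 12.1 kb apart against 39.8 kb over all siNC peaks. The median was 20.3 kb near GNAS (2 gaps), 29.8 kb near DLK1 and MEG3 (4 gaps) and 41.9 kb near GRB10 (4 gaps). These medians count only gaps inside a window, so its length limits them. Gaps from the outermost siNC members to siNC summits outside the window were 194 and 123 kb near GNAS. They were 121 and 183 kb near DLK1 and MEG3, 107 and 187 kb near GRB10, and 72.6 and 38.7 kb on chromosome 11. The SNRPN window held a single siNC summit, 1052 kb from the previous siNC summit and 429 kb from the next, both outside the window.

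**Figure D1:**
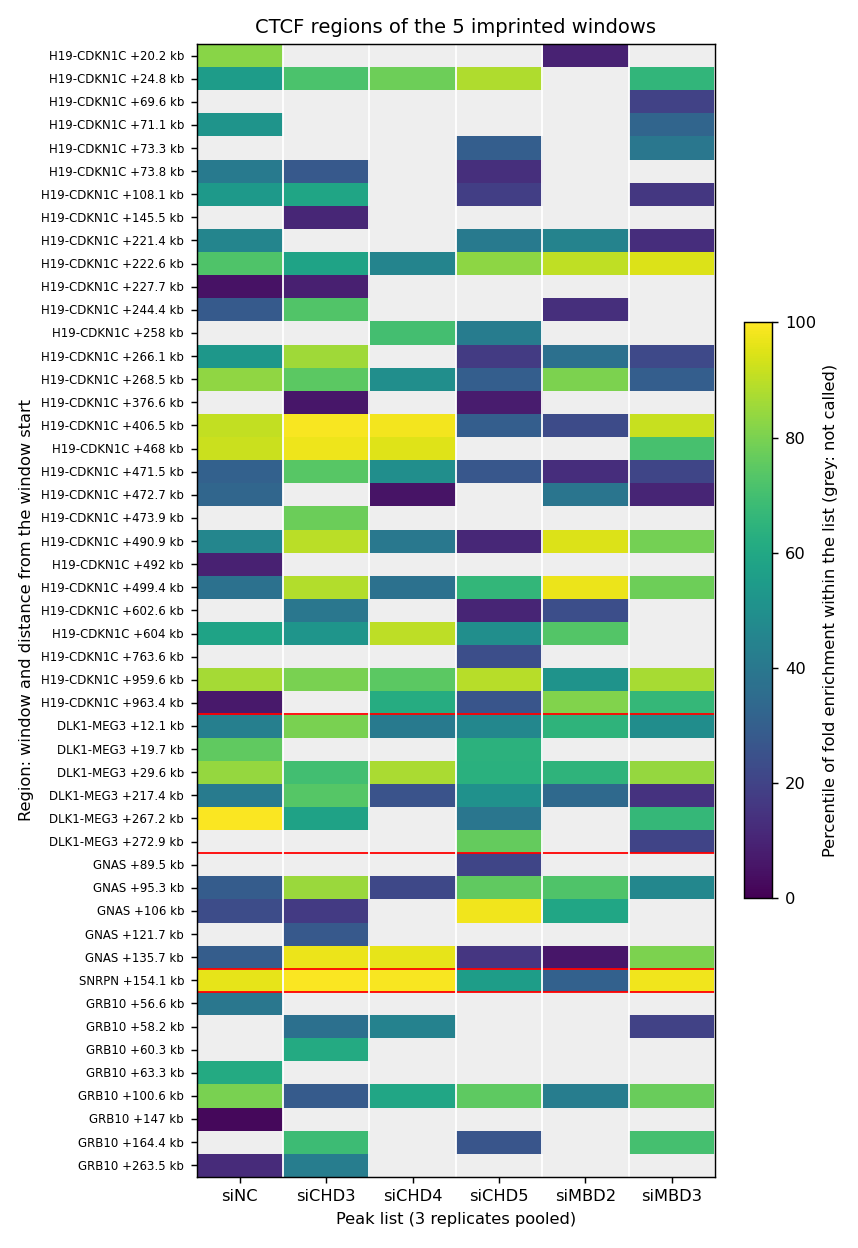
Rows are the 49 merged CTCF regions, named by window and by distance in kb from the window start, and columns are the 6 pooled peak lists. Colour is the percentile of fold enrichment within the list, grey marks a list with no peak there, and red lines part the windows. The 14 rows with no grey cell are the regions called in all lists.

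Binding was called in every list at 14 of the 49 regions (28.6%, exact 95% interval 16.6 to 43.3%, counting error only), beside 21.7% of merged regions in the whole genome. These 14 lay in every window: 7 of 29 regions on chromosome 11, 3 of 6 near DLK1 and MEG3, 2 of 5 near GNAS, the only region near SNRPN and 1 of 8 near GRB10. Another 11 regions (22.4%) were called in a single list, 4 of them in siNC alone, beside 31.6% of all merged regions. No region was called in all knockdown lists but not in siNC.

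A siNC peak that no peak of a knockdown list overlaps is called missing, and a knockdown peak that overlaps no siNC peak is called added. In siCHD3, 10 of 35 siNC members were missing (28.6%, interval 14.6 to 46.3%), beside 35.4% of all siNC peaks. In siCHD4, 16 were missing (45.7%, 28.8 to 63.4%), beside 41.5% in the whole list. For siCHD5 the number was 11 (31.4%, 16.9 to 49.3%), beside 21.5%. Both MBD lists lacked 13 (37.1%, 21.5 to 55.1%), beside 34.9% of all siNC peaks for siMBD2 and 38.5% for siMBD3. The interval held the share of the whole list in each of the 5 comparisons, which all share the siNC list.

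Added peaks followed the same reading in 4 of the knockdowns. In siCHD3, 8 of 33 members were added (24.2%, 11.1 to 42.3%), beside 32.6% of that list. The siCHD4 list had 2 of 21 (9.52%, 1.18 to 30.4%), beside 16.8%. The siMBD2 list had 1 of 24 (4.17%, 0.105 to 21.1%), beside 9.3%, a share that rests on 1 peak and ran from 0.0% to 16.7% over the alternatives. The siMBD3 list had 6 of 29 (20.7%, 7.99 to 39.7%), beside 13.4%. The siCHD5 list was the exception: 8 of its 32 members were added (25.0%, 11.5 to 43.4%), beside 9.41% of all siCHD5 peaks, so the lower end of the interval lay above the share of the whole list. That ended under 3 of 9 alternatives, each set beside all siCHD5 peaks. Among the 9, requiring the summit inside the window only repeated the reported counts. With a −log10 q of 10 or more in both lists the interval was 6.83 to 40.7% and the whole list's share 8.20%. In lists of equal length it was 6.83 to 40.7% against 13.2%, and without the chromosome 11 window 5.04 to 53.8% against 9.41%. Of those 8 peaks, 5 lay on chromosome 11 and 1 each near MEG3, GNAS and GRB10, and no replicate check of them was possible. Several were near the floor: their pileup percentiles in siCHD5 were 4.2, 6.7, 3.1, 37.5 and 3.1 on chromosome 11. They were 17.3 near MEG3, 27.0 near GNAS and 30.0 near GRB10. No allowance was made for the number of intervals read.

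**Figure D2:**
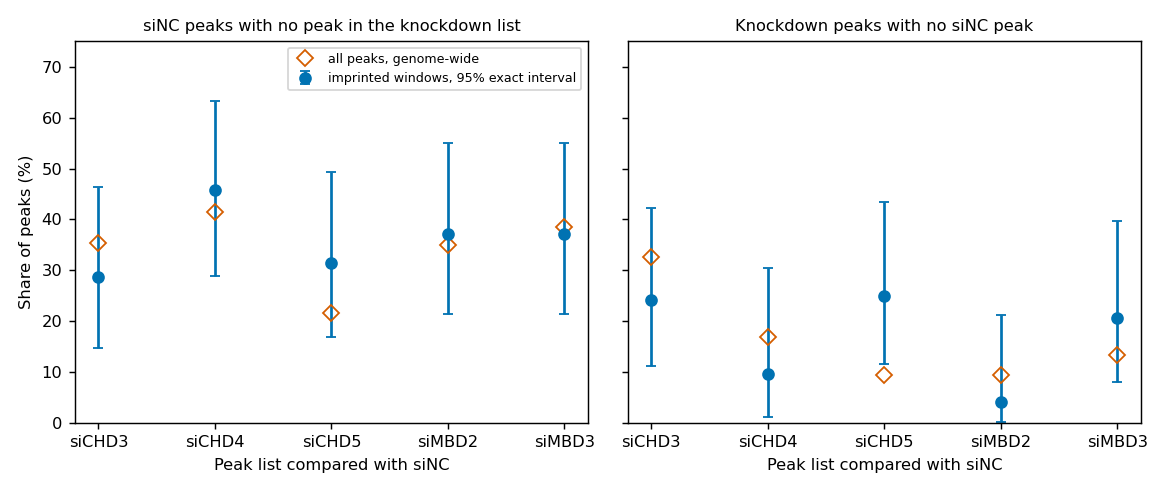
The left panel shows the percent of siNC peaks with no peak in each knockdown list, and the right panel the percent of knockdown peaks with no siNC peak. Filled points are the imprinted windows with exact 95% intervals and open diamonds all peaks, and the one diamond outside an interval is that of added siCHD5 peaks (9.41% against 25.0%).

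In the first 250 kb of the chromosome 11 window, called the H19-IGF2 side here without use of an hg19 annotation, CTCF calls differed from list to list. This stretch held 12 regions, of which 1 was called in all 6 lists, beside 21.7% of merged regions in the whole genome. Calls there numbered 9 in siNC, 7 in siCHD3, 2 in siCHD4, 6 in siCHD5, 7 in siMBD3 and 4 in siMBD2. The whole lists held 36270, 34319, 25358, 31451, 25848 and 26087 peaks in the same order. Over the whole chromosome 11 window, siCHD4 lacked 9 of 21 siNC members (42.9%), beside 41.5% of all siNC peaks. Whether the count of this stretch in siCHD4 departs from that share was not tested. The next 250 kb also held 12 regions, and 5 of those were called in all lists, with 9, 9, 8, 8, 8 and 7 calls in the same order. The last 500 kb had 5 regions, 1 of them called in every list.

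The cluster with the most regions within 5 kb, in any window, spanned 4696 bp at chr11:2019649-2024344. It held 4 regions, and none was called in siCHD4 or siMBD2. Region chr11:2021055-2021278 was called in siNC (fold 5.30) and siMBD3 (5.82). Its neighbour chr11:2023755-2024344 had 2 summits in siNC (fold 4.83) and 1 each in siCHD3 (5.04) and siCHD5 (4.40). The others were called without siNC: chr11:2023287-2023576 in siCHD5 (5.42) and siMBD3 (6.18), and chr11:2019649-2019834 in siMBD3 alone (5.09). The siNC peaks of this cluster were near the floor of the list, with summit pileups of 20 and 21 fragments, at percentiles 7.4 and 8.7 of siNC pileup. The annotation of hg19 was not used here, so these regions are not assigned to the H19 control region. Thinned to the depth of siCHD4, the 2 siNC pileups had a 77.7% and a 67.2% chance of a call, and at the depth of siMBD2 a 44.1% and a 48.8% chance. The first was also not called in siCHD3 (35.4% chance) and siCHD5 (98.5%), and the second not in siMBD3 (27.0%).

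The firmest H19-IGF2 region was chr11:2172617-2173498, called in all 6 lists. Fold was 6.30 in siNC, 6.75 in siCHD3, 4.87 in siCHD4, 9.19 in siCHD5, 10.98 in siMBD3 and 9.55 in siMBD2. It held a pair of summits, at positions 2172841 and 2173371 in siMBD2. The siNC, siCHD3 and siCHD5 lists called them as 1 peak with 2 summits, and siMBD2 and siMBD3 called separate peaks. In siCHD4 only the right one was called, at 2173358. The left summit had the higher fold in siMBD2 (9.55 against 6.01) and in siMBD3 (10.98 against 5.93), while siCHD3 and siCHD5 had their highest fold at the right one.

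Region chr11:1974768-1975097, near the start of the window, was called in all lists but siMBD2, with fold 5.45 in siNC, 7.72 in siCHD3, 6.38 in siCHD4, 9.98 in siCHD5 and 7.59 in siMBD3. Region chr11:1970172-1970511, 4256 bp away, was called in siNC (fold 7.03, percentile 82.2 of the list) and siMBD2 (4.34, percentile 9.4) and in no other list. It was the strongest siNC member missing in siCHD3 and in siMBD3, where its chance of a call after thinning was 70.5% and 56.2%. In siCHD4 and siCHD5, where it was also missing, that chance was 96.2% and 99.999%.

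The remaining H19-IGF2 regions were called in some lists. Region chr11:2058128-2058509 had fold 5.40 in siNC, 6.79 in siCHD3, 4.75 in siCHD5 and 4.91 in siMBD3. At chr11:2171436-2171807, 809 bp from the region of paired summits, fold was 5.03 in siNC, 6.05 in siCHD5, 4.62 in siMBD3 and 6.37 in siMBD2. Neither was called in siCHD4. Region chr11:2194448-2194718 was called in siNC (4.33), siCHD3 (7.82) and siMBD2 (4.69), chr11:2177679-2177963 in siNC (3.08) and siCHD3 (3.91), and chr11:2095547-2095746 in siCHD3 alone (4.08).

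**Figure D3:**
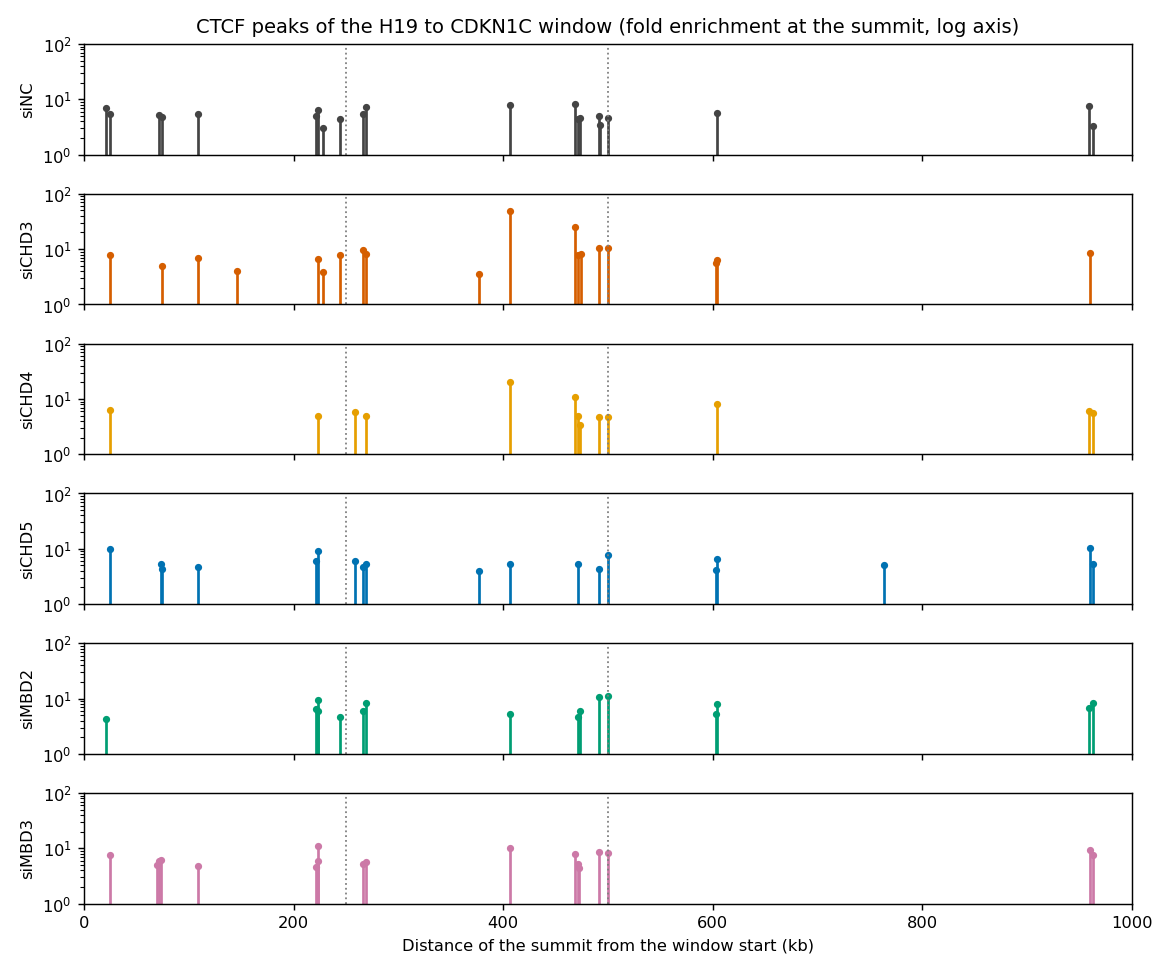
Stems mark CTCF peaks of the chromosome 11 window in each of the 6 lists, placed by distance of the summit from the window start in kb, with height the fold enrichment on a log axis. Dotted lines end the first and the second 250 kb. The first stretch holds 2 calls in siCHD4 against 9 in siNC, beside 25358 and 36270 peaks in the whole lists. The tall stems in siCHD3 and siCHD4 lie in the second.

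The second 250 kb of the chromosome 11 window held 5 of its 7 regions called in all lists, and its highest folds in siNC, siCHD3, siCHD4 and siMBD2. Region chr11:2218467-2218728 was called in all lists, with fold 7.13 in siNC, 8.01 in siCHD3, 5.02 in siCHD4, 5.42 in siCHD5, 5.69 in siMBD3 and 8.40 in siMBD2. All values thus lay between 5.02 and 8.40. A pair of regions at chr11:2440878-2441201 and chr11:2449405-2449785, named here after their values were seen, were also in every list. Their percentiles of fold were 94.9 and 97.1 in siMBD2, 89.5 and 88.6 in siCHD3, 79.1 and 77.8 in siMBD3, and 46.0 and 37.4 in siNC. They were 40.0 and 37.4 in siCHD4 and 11.3 and 66.3 in siCHD5. A faint peak at chr11:2441958-2442184 was called in siNC only, at fold 3.41. Region chr11:2423885-2424217 was the strongest added siCHD3 peak of all windows (fold 8.31), and chr11:2207979-2208263 that of siCHD4 (5.88), where siCHD5 also had a peak (6.09).

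KCNQ1, a potassium channel gene, and CDKN1C, a cyclin-dependent kinase inhibitor gene, also belong to the chromosome 11 window. In its last 500 kb, chr11:2909626-2909949 was called in every list with fold 7.46 in siNC, 8.54 in siCHD3, 6.17 in siCHD4, 10.2 in siCHD5, 9.31 in siMBD3 and 6.69 in siMBD2. Region chr11:2552596-2552970 was called in siCHD3 (5.67), siCHD5 (4.14) and siMBD2 (5.35) and not in siNC. The siNC summits of this stretch left a gap of 356 kb, the widest between members of any window. Within that gap the siCHD5 list alone had a peak, at chr11:2713650-2713885 (fold 5.08), named after its value was seen.

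The DLK1-MEG3 window, which holds a Notch-family ligand gene and a long noncoding RNA gene, had 6 regions. Region chr14:101129631-101130048 had the narrowest range of fold of the 14 regions called in all lists, with fold 7.19 in siNC, 7.58 in siCHD3, 7.37 in siCHD4, 7.39 in siCHD5, 9.00 in siMBD3 and 7.38 in siMBD2. Region chr14:101119652-101120043 was called in siNC (6.52) and siCHD5 (7.45). The strongest siNC member of all windows lay at chr14:101367221-101367507, with fold 12.4 (percentile 99.3). That region had fold 6.72 in siCHD3, 5.95 in siCHD5 and 7.62 in siMBD3, and no call in siCHD4 or siMBD2. Its siNC summit held 48 fragments over a background of 2.96, the lowest of that list, and its pileup was at percentile 39.8, so its high fold came with an ordinary pileup. The chance of a call after thinning was 99.99% at the depth of siCHD4 and 98.7% at that of siMBD2. What else moved with these missing calls was not tested. Region chr14:101372888-101373139 was called in siCHD5 (8.46, its strongest added member) and siMBD3 (5.14) without siNC.

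The window of GNAS, which encodes the alpha subunit of the stimulatory G protein, held 5 regions, and its siNC peaks had low fold, 4.12 to 4.39. Their pileups along the window were 98, 50 and 33 fragments, at percentiles 77.7, 41.7 and 23.9 of siNC. The first had a local background at percentile 90.6, so low fold there did not mean a low pileup. Region chr20:57445303-57445707 was called in every list, at fold 4.37 in siNC, 9.38 in siCHD3, 4.12 in siCHD4, 8.38 in siCHD5, 6.53 in siMBD3 and 7.82 in siMBD2. Its neighbour chr20:57456006-57456405 stood out in siCHD5, at fold 13.6 (percentile 97.7), against 4.12 in siNC, 4.43 in siCHD3 and 7.08 in siMBD2, with no call in siCHD4 or siMBD3. The summit pileup over the list's coverage was 21.5 in siCHD5 and 16.9 in siNC, and the local background over coverage was 1.11 and 3.84. The part of the lower local background in the higher fold was not tested.

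Around GRB10, an adaptor of the insulin and growth factor receptors, 1 of 8 regions was called in every list. Another 3 were called in siNC alone: chr7:50656562-50656747 (fold 4.80), chr7:50663297-50663509 (5.70) and chr7:50747010-50747198 (2.75). Their pileups were low, at percentiles 5.0, 18.9 and 23.9 of the siNC list. A further 2 were called in 3 knockdown lists and not in siNC. Over the whole genome, 31.6% of merged regions were called in a single list and 10.2% in 3 lists. The shares with exactly these patterns were not counted. Region chr7:50764413-50764706 had fold 7.46 in siCHD3, 5.21 in siCHD5 and 7.88 in siMBD3, with pileups at percentiles 58.3, 30.0 and 41.1. Region chr7:50658229-50658686 had 5.54 in siCHD3, 4.85 in siCHD4 and 5.09 in siMBD3. Its pileups there were only 7, 9 and 6 fragments, at percentiles 19.3, 7.6 and 8.9, with summits up to 202 bp apart. Region chr7:50700563-50701005 was the constant one, at 6.82 in siNC, 5.08 in siCHD3, 5.36 in siCHD4, 8.35 in siCHD5, 8.36 in siMBD3 and 6.25 in siMBD2. Missing siNC members were 3 of 5 in siCHD3 and 4 of 5 in each other knockdown, too few for a comparison with the shares of all peaks.

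In both siCHD3 and siCHD4 the members of highest fold were the same 4 regions, each among the 5% of highest fold in both lists, and 3 of them were called in all 6 lists. In the SNRPN window, which takes its name from the gene of a spliceosome protein, the only region was chr15:25154097-25155017. Its fold was 9.37 in siNC, 67.9 in siCHD3, 26.1 in siCHD4, 6.88 in siCHD5, 13.1 in siMBD3 and 5.70 in siMBD2. The percentile of these values within each list was 96.1, 99.5, 99.1, 55.7, 98.0 and 31.1 in the same order. It was far wider than a typical peak, at 725 to 921 bp against list medians of 242 to 304 bp, and all 6 summits lay within 15 bp. Local background there was also high, 9.83 to 36.0 times the coverage and at percentile 98.5 or above in each list. The summit pileup was at percentile 98.0 or above in each list, also in siCHD5 and siMBD2, where fold was lowest. Over the coverage this pileup was 70.6 in siCHD5 and 212.5 in siMBD2, against 151.3 in siNC.

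The other strong regions were chr11:2356496-2357018, chr11:2418040-2418511 and chr20:57485735-57486207. The first had fold 8.06 in siNC, 48.0 in siCHD3, 20.1 in siCHD4, 5.42 in siCHD5, 10.1 in siMBD3 and 5.27 in siMBD2. The second had 8.26 in siNC, 25.1 in siCHD3, 10.8 in siCHD4 and 7.89 in siMBD3, and was not called in siCHD5 or siMBD2. After thinning to the depth of siCHD5 its chance of a call was 100.0%, and it was the strongest siNC member missing there. The third, in the GNAS window, had 4.39 in siNC, 21.9 in siCHD3, 12.1 in siCHD4, 4.59 in siCHD5, 8.59 in siMBD3 and 4.05 in siMBD2. By pileup the 3 regions stood at percentiles 99.1, 97.0 and 93.2 in siCHD3. In siCHD4 they stood at 97.7, 82.0 and 44.4. The third had only 24 fragments in siCHD4, over a background at percentile 7.0, so its high fold there came with an ordinary pileup. All 3 had their highest fold in siCHD3 and the next in siCHD4, as the SNRPN region did. The 4 strong regions were grouped by their high fold in siCHD3 and siCHD4. That these lists rank first therefore largely restates the choice. In siCHD5 and siMBD2 the 3 regions had fold 5.42 or below or were not called. Low fold there did not always mean a low pileup. The first had its siMBD2 pileup at percentile 83.2, 53.1 times the coverage against 45.9 in siNC, over a background at percentile 96.5. In siCHD5 its pileup was at percentile 45.8. The third had pileups at percentile 4.2 in siCHD5 and 12.0 in siMBD2. In RefSeq on GRCh38, the span of SNRPN holds the ribosomal protein pseudogenes RPL5P1 and RPS27P2. That of CD81-AS1, not one of the 9 genes, holds RPL26P30, and that of KCNQ1 holds the pseudogene COX6CP18. For GNAS no pseudogene was listed, only the long noncoding RNA gene LOC101927932. Whether any of the 4 strong regions lies on a pseudogene or a repeat was not analysed here.

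**Figure D4:**
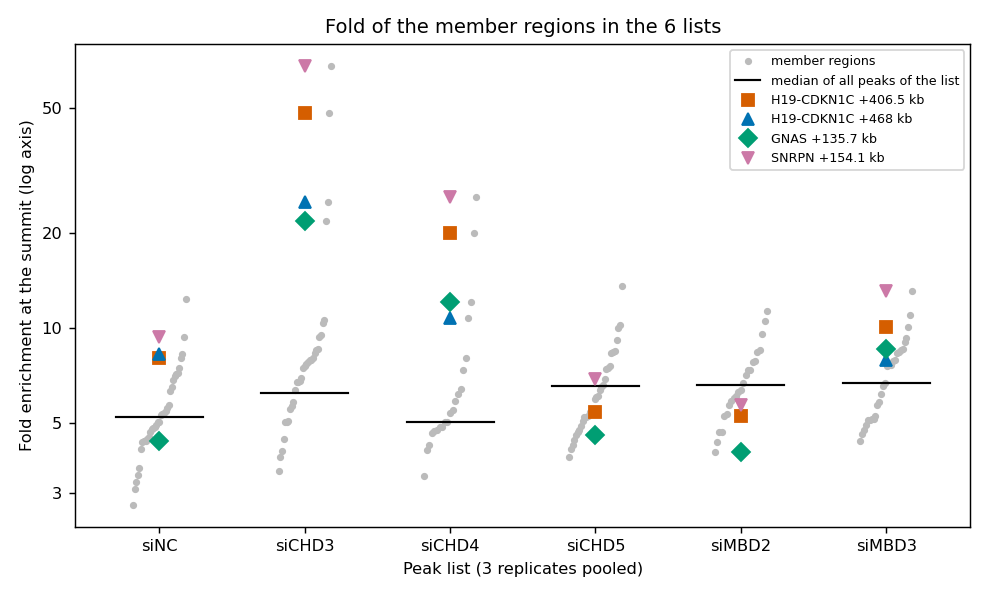
Points give the fold enrichment of each imprinted-window region in each of the 6 lists on a log axis, and black lines the median fold of all peaks of the list. Large coloured symbols repeat the 4 regions among the 5% of highest fold in both siCHD3 and siCHD4, named by window and distance in kb from its start. In siCHD3 they run from 21.9 to 67.9, apart from the other regions. They were grouped by their high fold in siCHD3 and siCHD4, so their standing apart there largely restates the choice.

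Read over the siNC members that a knockdown list kept, few moved by a large factor. In siCHD3, 4 of 25 kept members had a fold of at least 3 times that in siNC, beside 9.49% of all kept peaks, and these were the SNRPN region (7.24 times), chr11:2356496-2357018 (5.96), the GNAS region chr20:57485735-57486207 (5.00) and chr11:2418040-2418511 (3.04). The siCHD4 list had 0 of 19, beside 1.59%, with the SNRPN region highest at 2.78 times. The siCHD5 list had 1 of 24, the GNAS region chr20:57456006-57456405 (3.29 times), beside 0.59%. Neither MBD list had any, 0 of 22 each, beside 0.208% for siMBD2 and 0.439% for siMBD3. Median ratios of the kept members were 1.62 in siCHD3, 0.99 in siCHD4, 1.18 in siCHD5, 1.25 in siMBD3 and 1.19 in siMBD2, against 1.27, 0.94, 1.23, 1.25 and 1.21 over all kept peaks. Fold depends on each list's depth and background, so these ratios describe the lists.

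Kept peaks overlap a siNC peak by definition, which limits how far summits can move. The median distance between the siNC summit and the knockdown summit was 5.5 to 14 bp over the members, against 8 to 12 bp over all kept peaks. Summits lay within 100 bp for 24 of 25 kept members in siCHD3, 17 of 19 in siCHD4, 23 of 24 in siCHD5, 21 of 22 in siMBD2 and 22 of 22 in siMBD3. The largest distances, 529 bp in siCHD3, 514 bp in siCHD4 and 522 bp in siCHD5, were at the paired summits of chr11:2172617-2173498.

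Missing calls in the windows were set beside those expected under binomial thinning of each siNC pileup to the other list's coverage. The thinning starts from the siNC pileup itself, holds the scaled background fixed, and covers peaks chosen as called in siNC. The expected shares therefore leave out the spread between separate libraries and are not all that a difference in depth could give. In siCHD3 the expected share of missing members was 35.3% and the observed 28.6%, and in siMBD3 43.2% and 37.1%. For siMBD2 it was 25.3% and 37.1%. Observed shares stood further above the expected in siCHD4 (45.7% against 12.3%) and in siCHD5 (31.4% against 1.29%). Over all siNC peaks, siCHD4 and siCHD5 stood in the same relation, with 41.5% and 21.5% missing against 12.1% and 3.06% expected. Of the members with a chance of a call of at least 90%, 1 of 11 was missing in siCHD3, beside 11.9% of all siNC peaks with such a chance. In siCHD4 it was 8 of 24, beside 31.5%, and in siCHD5 9 of 33, beside 16.5%. The siMBD2 list lacked 4 of 17, beside 10.4%, and siMBD3 0 of 4, beside 6.95%. These numbers are small, and whether the members' shares differ from those of all such peaks was not tested. The part of enrichment, threshold or fragment length in these differences was not tested.

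**Figure D5:**
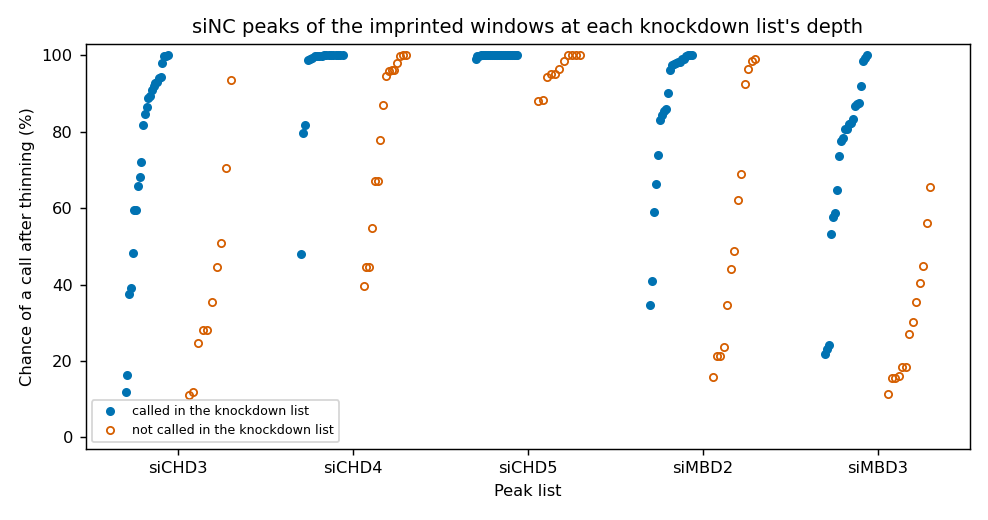
Each point is a siNC peak of the imprinted windows, placed by its chance in percent of still being called after its pileup is thinned to the coverage of the knockdown list on the x axis. Filled points were called in that list and open points were not. In siCHD5 all open points lie high, and in siMBD3 all lie below 90%.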

How the data were processed

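CTCF immunoprecipitates and inputs of 6 conditions, 3 of each (36 samples), were the source of 6 deposited peak lists, 1 per condition, in which the authors called the 3 replicates together, per the peak names in the files. The columns were taken as the authors' fold enrichment, a ratio of the summit to its local background, the deposited −log10 p and −log10 q, the deposited display score (not used) and the deposited summit offset in bp. The submitters' processing notes name MACS2 2.1.2 with the hg19 build, and also Bowtie2 2.3.4, SAMtools 1.9, deepTools 3.5.0, bedtools 2.25.0 and FastQC 0.11.7. Not given in the sources used here were their roles and settings and the read totals per sample.

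Several summits of 1 peak, listed on lines of equal start and end, were counted once, with the highest fold. Peaks on chromosomes 1 to 22 and X (23 chromosomes) entered. Lists were compared by overlap of 1 bp, and regions merged overlapping or touching peaks. Shares carry exact Clopper-Pearson 95% intervals, for counting error only. Pileup and background were solved from the authors' fold, taken as pileup plus 1 over background plus 1, and from the Poisson tail of the authors' p, within 0.01% for 100% of peaks. Coverage, the smallest background recurring in a list, stands for depth times fragment length. Chances of a call come from binomial thinning of the siNC pileup to the other list's coverage, against that list's smallest −log10 p. They leave out the spread between separate libraries. These steps were tested on simulated data. Python 3.11.15, numpy 2.4.6, pandas 2.3.3, scipy 1.17.1 and matplotlib 3.10.9 were used. Coordinates are 1-based.

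Members, the rule for named regions and the motifs were chosen with earlier results of these data known. Named regions were all those in the first 250 kb of chromosome 11, the 3 of highest siNC fold per window (6 on chromosome 11), those called in siNC alone, those called in 3 or more knockdown lists without siNC, and the strongest missing and added member of each knockdown. The shares of all peaks under each alternative and the fold ratio of 3 were chosen on these lists. So were the regions said to be named after their values were seen and the group strong in both siCHD3 and siCHD4. An hg19 genome and annotation were not used here.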

Additional observations from a re-analysis of the deposited data

How the results depend on the processing

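Under 109 alternative values, 96 stayed within the interval of the reported share and 13 left it, 12 of them lower. Requiring the summit inside the window repeated the reported counts of missing and added members, so that setting could not leave an interval. Where both lists were held to a −log10 q of 10 or more, added members fell to 10.0% in siCHD3 (2 of 20) and 0.0% in siCHD4 (0 of 15), and missing members in siMBD3 rose to 57.7% (15 of 26). The shares of all peaks were then 18.3%, 7.24% and 61.2% in the same order. With that threshold in the searched-for list only, added members were 10.0% in siCHD3, 0.0% in siCHD4 (0 of 15), 0.0% in siMBD2 (0 of 15) and 0.0% in siMBD3 (0 of 12), and missing members 15.4% in siCHD5 (4 of 26). All peaks gave 8.92%, 2.22%, 1.165% and 1.39% added and 9.38% missing in the same order. Lists cut to equal length (25358 peaks) gave missing shares of 16.7% in siCHD5 (4 of 24), 20.8% in siMBD2 (5 of 24) and 20.8% in siMBD3 (5 of 24). Weighting by the chance of a call gave 19.9% in siMBD3. Without the chromosome 11 window, added members in siMBD2 were 0.0% (0 of 8), beside 9.3% of all siMBD2 peaks. Fewer peaks entered under these thresholds, and the cause of each change was otherwise not tested. Without leaving its interval, the added share in siMBD2 was 16.7% (4 of 24) in lists of equal length, beside 18.9% of all siMBD2 peaks, and 12.5% (3 of 24) with reciprocal overlap of 50%, beside 12.6%. Added siCHD5 members ran from 16.0% to 28.1%, and their interval lay above the share of all siCHD5 peaks under 6 of 9 alternatives. Those 6 include the summit setting that repeated the reported counts. For siCHD3 at a −log10 q of 10 or more in both lists, 30.8% of members were missing (14.3 to 51.8%), beside 59.1% of all siNC peaks, the only other alternative in which an interval did not hold the share of all peaks.

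No paired analysis was possible because the replicates of each condition were pooled before the peaks were called, and for that reason none was left out in turn. A missing call is not absence of binding, since depth, enrichment and the authors' threshold all set it, and siMBD3 and siCHD3 had the least coverage.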
